A study of Mus musculus with 22 samples.

Results

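Collagen chain genes were described in RNA sequencing data from 22 samples of mouse lung cells, 12 of sorted Ly6Chi monocytes and 10 of sorted SigF+CD11b- alveolar macrophages. The genes were chosen by name alone, as protein-coding genes whose symbol reads Col, a number, the letter a and a number. There were 44 such genes, 11 for fibrillar chains and 33 for other chains, among the 55439 genes listed for either cell type, and all 44 were listed for both. The monocyte samples were 4 controls, 4 taken 3 d and 4 taken 14 d after tamoxifen, and the macrophage samples were 4 controls, 3 at 3 d and 3 at 14 d. All mice were C57BL/6 adults of both sexes that carried the SP-CI73T mutant, an altered gene for surfactant protein C, which is made by alveolar epithelial cells. In the treated mice oral tamoxifen activates a Flp-O recombinase at the Rosa26 locus, which removes a neomycin cassette and raises the level of the mutant protein. The labels call the control mice untreated, whereas the study describes the controls of the sequenced monocytes as SP-CI73T mice given oil, and its general methods also allow tamoxifen treated mice that lack Flp-O. Lungs were lavaged, perfused and digested with collagenase D before the sort. For the sort of monocytes the study describes the exclusion of neutrophils, lymphocytes, eosinophils and resident alveolar macrophages. No fibroblasts or whole lungs were among the samples. Neither the labels nor the methods say that each sample is a separate mouse, so p-values measure the spread between these samples, which may be technical.

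Collagens are extracellular proteins in which chains wind into a triple helix, and most collagen of the lung is made by fibroblasts and other mesenchymal cells. Fibrillar chains form the banded fibrils that give tissue its strength. Type IV chains form the network of the basement membrane, type VI chains form beaded filaments, type VII anchors epithelium to the stroma, and fibril-associated chains coat the fibrils. Macrophages are best known for taking up and degrading collagen.

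Promoters are shown first for type IV chains, because these genes lie in head-to-head pairs whose members can be compared, and for Col3a1, whose change differed between the cell types. The sequences are RefSeq windows on GRCm38.p6 from 250 bases before to 50 bases after an annotated start, written 5′ to 3′ on the strand of the gene. Of the 44 genes, 35 had a window in the table, with 38 windows in all. Capitals mark GC boxes (GGGCGG or CCGCCC) and CCAAT boxes (CCAAT or ATTGG), which did not overlap in these windows. A GC box was found in 35.7% of all 32851 windows and in 23 of the 38 collagen windows (60.5%), and a CCAAT box in 37.4% of all windows and 13 of the 38 (34.2%). The windows are chr8:11312777-11313076 (minus strand) for Col4a1, chr8:11312555-11312854 (plus) for Col4a2, chr1:82586800-82587099 (minus) for Col4a4, chrX:141475169-141475468 (plus) for Col4a5, chrX:141474027-141474326 (minus) for Col4a6 and chr1:45311288-45311587 (plus) for Col3a1.
Col4a1: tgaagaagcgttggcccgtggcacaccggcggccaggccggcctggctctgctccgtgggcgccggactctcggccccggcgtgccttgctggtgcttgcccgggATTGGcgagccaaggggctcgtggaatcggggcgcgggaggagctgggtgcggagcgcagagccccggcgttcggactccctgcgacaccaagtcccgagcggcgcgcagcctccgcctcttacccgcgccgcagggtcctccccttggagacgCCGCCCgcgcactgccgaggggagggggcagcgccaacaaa
Col4a2: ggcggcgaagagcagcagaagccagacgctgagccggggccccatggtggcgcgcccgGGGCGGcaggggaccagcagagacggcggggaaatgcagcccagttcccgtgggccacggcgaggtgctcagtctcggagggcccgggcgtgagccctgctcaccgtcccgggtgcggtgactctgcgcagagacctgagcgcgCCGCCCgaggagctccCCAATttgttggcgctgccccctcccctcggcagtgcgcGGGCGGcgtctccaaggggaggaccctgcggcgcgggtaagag
Col4a4: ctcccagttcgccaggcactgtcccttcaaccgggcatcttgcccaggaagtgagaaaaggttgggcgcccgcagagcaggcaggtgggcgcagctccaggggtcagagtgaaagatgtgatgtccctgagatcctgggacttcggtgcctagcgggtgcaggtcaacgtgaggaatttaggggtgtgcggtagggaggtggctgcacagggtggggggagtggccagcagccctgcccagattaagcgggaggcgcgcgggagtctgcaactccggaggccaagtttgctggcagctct
Col4a5: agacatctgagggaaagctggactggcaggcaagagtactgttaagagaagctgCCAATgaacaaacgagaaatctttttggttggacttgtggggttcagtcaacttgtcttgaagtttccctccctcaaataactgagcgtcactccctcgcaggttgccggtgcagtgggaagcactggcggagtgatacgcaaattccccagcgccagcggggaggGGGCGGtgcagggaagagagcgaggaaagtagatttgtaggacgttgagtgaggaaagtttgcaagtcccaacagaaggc
Col4a6: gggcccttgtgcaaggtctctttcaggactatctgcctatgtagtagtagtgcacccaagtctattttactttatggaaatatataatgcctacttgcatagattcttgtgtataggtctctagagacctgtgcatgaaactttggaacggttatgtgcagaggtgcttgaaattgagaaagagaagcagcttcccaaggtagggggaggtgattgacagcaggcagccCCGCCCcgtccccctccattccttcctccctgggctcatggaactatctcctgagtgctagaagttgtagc
Col3a1: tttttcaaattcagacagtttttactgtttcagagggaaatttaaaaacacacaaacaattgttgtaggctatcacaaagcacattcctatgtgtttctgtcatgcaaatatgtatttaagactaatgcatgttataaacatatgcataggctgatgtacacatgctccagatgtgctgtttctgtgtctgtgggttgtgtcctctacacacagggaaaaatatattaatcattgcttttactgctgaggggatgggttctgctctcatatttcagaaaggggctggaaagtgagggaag
The annotated starts of Col4a1 and Col4a2 lie 21 bases apart on opposite strands and their windows share 78 bases. Those of Col4a3 and Col4a4 lie 72 bases apart, and those of Col4a5 and Col4a6 lie 1309 bases apart. The Col4a2 window held 3 GC boxes and 1 CCAAT box, the Col4a1 and Col4a5 windows held 1 of each, the Col4a6 window held 1 GC box, and the Col4a4 and Col3a1 windows held neither. The GC box of Col4a1 and the last GC box of Col4a2 are the same site, which lies in the shared bases and was counted in both windows.

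The monocyte libraries held 15451460 to 28789639 counts each and the macrophage libraries 4610720 to 17074863, and the 3 macrophage samples at 14 d had the lowest, 5618291, 6838893 and 4610720. Collagen genes took 782 to 1053 counts in a control monocyte sample, 3846 to 4614 at 3 d, 1154 to 1343 in a control macrophage sample and 3651 to 4681 at 14 d. On markers, the summed level of 6 Ly6Chi monocyte genes lay between 7185 and 15179 CPM (counts scaled to library size) in the monocyte samples and between 331 and 550.1 CPM in the macrophage samples. That of 10 alveolar macrophage genes reached 23205 to 57052 CPM in macrophage samples, but it was also 4433 to 21465 CPM in monocyte samples. Macrophage sample 3 at 3 d had the highest of these values, 57052 CPM, against 31720 and 27684 CPM in the other samples of its group.

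In monocytes most collagen genes were higher at 3 d than in the controls. Of the 43 members tested, 36 were called higher and 0 lower, where a call is an adjusted p-value (q, edgeR's quasi-likelihood test, adjusted by Benjamini-Hochberg across the genes tested) under 0.05 with a fold change above 1.5. Across all 22353 genes tested 36.8% were called higher and 14.4% lower. The median log2 fold change was 3.01 for the members and 0.22 for all genes. The 36 called members ranged from 1.29 for Col9a3 to 5.24 for Col9a2, and in each of them the 4 samples at 3 d lay above the 4 controls. Over all members tested this held for 39 of 43, beside 36.6% of all genes. Col8a2 was not tested, for too few counts. The summed level of the 44 genes was 39.2, 42.1, 42.3 and 40.0 CPM in the controls, 176, 173, 228 and 217 CPM at 3 d and 54.0, 58.2, 36.4 and 50.9 CPM at 14 d, so that the 3 d samples were apart from both other groups.

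**Figure D1:**
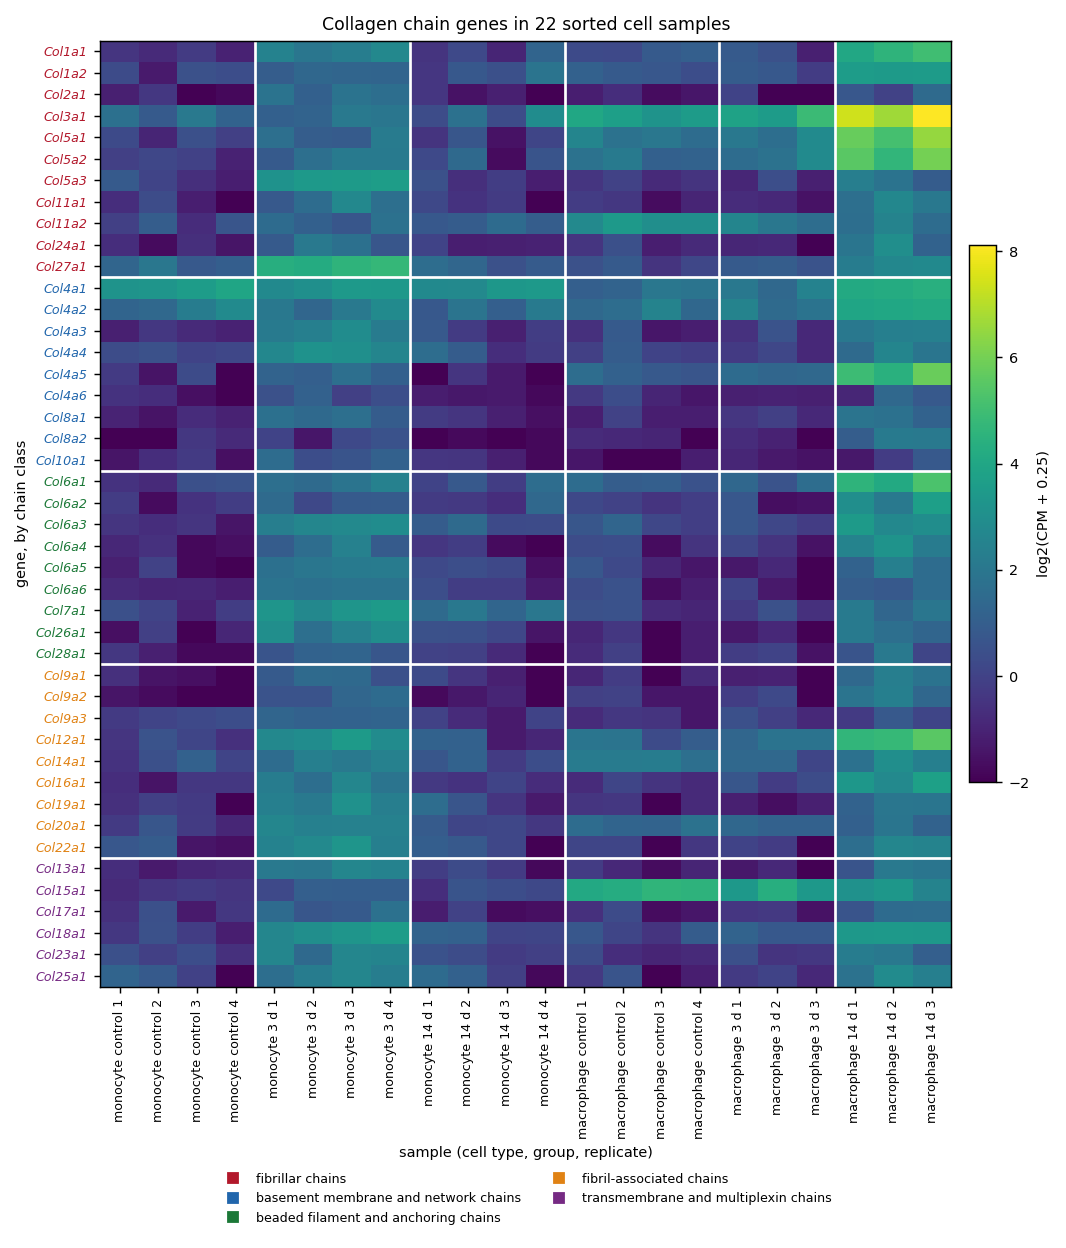
Level of each of the 44 collagen genes (vertical axis, grouped by chain class) in each of the 22 samples (horizontal axis), as log2 of the CPM with 0.25 added. The 4 monocyte samples at 3 d and the 3 macrophage samples at 14 d stand out across most rows, with Col3a1 at 167, 102 and 277 CPM in the macrophages at 14 d, while Col4a1 in monocytes and Col15a1 in macrophages were high in the controls.

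The main fibril chains differed from each other in the 3 d monocytes. Col1a1, the chain present in more copies in type I collagen, had 0.497, 0.323, 0.603 and 0.244 CPM in the controls and 5.404, 3.68, 4.62 and 6.31 CPM at 3 d (log2 fold change 3.56 ± 0.58, SE, q = 0.00069). Col1a2, its partner in the type I helix, had 0.994, 0.161, 1.17 and 1.06 CPM in the controls and 1.75, 2.33, 2.20 and 2.16 CPM at 3 d, a difference of 1.30 ± 0.59 that was not called (q = 0.074). Col3a1, the chain of type III collagen, had 3.07, 1.56, 4.02 and 1.99 CPM in the controls and 1.91, 2.11, 4.03 and 3.62 CPM at 3 d (0.13 ± 0.57, q = 0.86). All 4 samples at 3 d lay above the controls for Col1a1 and Col1a2, whereas the groups overlapped for Col3a1. DESeq2, library size scaling, upper quartile scaling, TMM factors from high-level genes and a fit of the 2 groups alone called Col1a2 higher.

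Per kilobase of exon, the highest collagen genes of the 3 d monocytes were minor fibrillar chains. Col27a1, a fibrillar chain of cartilage, had 2.20, 3.82, 1.53 and 1.79 CPM in the controls and 19.99, 18.5, 23.9 and 26.6 CPM at 3 d (3.26 ± 0.33, q = 0.00014). Col5a3, the rarest of the type V chains, had 1.57, 0.807, 0.402 and 0.203 CPM in the controls and 8.61, 10.8, 11.2 and 12.2 CPM at 3 d (3.84 ± 0.57, q = 0.00050). At 3 d the mean level was 1.71 CPM per kb for Col27a1 and 1.58 for Col5a3, followed by Col18a1 at 1.25 and Col4a1 at 1.196 CPM per kb. The main fibril chains were lower, with Col1a1 at 0.762, Col3a1 at 0.297 and Col1a2 at 0.170 CPM per kb.

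The 3 called members with the largest change were Col9a2, Col26a1 and Col6a3. Col9a2, a chain of the cartilage collagen IX, had 3, 1, 0 and 0 counts in the controls and 31, 28, 43 and 56 at 3 d (5.24 ± 0.96, q = 0.0012). Col26a1 had 2, 13, 0 and 7 counts in the controls and 188, 67, 97 and 160 at 3 d (4.50 ± 0.83, q = 0.0012). Col6a3, the largest chain of type VI collagen, had 12, 7, 12 and 3 counts in the controls and 116, 133, 121 and 154 at 3 d (4.03 ± 0.47, q = 0.00019). In all 3 genes the 3 d samples were apart from the controls, and the control counts of Col9a2 and Col26a1 included samples at 0. Col9a2 passed the filter on low counts only through the 3 d group, so it had to be high there to be tested, and its change is a description.

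Col2a1, the main chain of cartilage fibrils, had 0.207, 0.538, 0 and 0.0407 CPM in the controls and 3.33, 1.89, 3.33 and 2.92 CPM at 3 d (3.91 ± 0.94, q = 0.0041). Col8a1, a short network chain of vessel walls, had 0.249, 0.108, 0.362 and 0.244 CPM in the controls and 3.05, 2.47, 2.96 and 1.69 CPM at 3 d (3.35 ± 0.59, q = 0.00099). Col6a1, which joins Col6a3 in type VI collagen, had 0.456, 0.323, 1.13 and 1.261 CPM in the controls and 3.01, 2.56, 3.49 and 5.13 CPM at 3 d (2.14 ± 0.54, q = 0.0055). The groups were apart for all 3 genes, but Col2a1 and Col8a1, like Col9a2, passed the filter only through the 3 d group. Col4a3, a type IV chain of specialised basement membranes such as that of the alveolus, had 0.207, 0.538, 0.322 and 0.244 CPM in the controls and 4.10, 4.94, 7.42 and 4.38 CPM at 3 d (3.99 ± 0.55, q = 0.00037), again without overlap. Of its exonic bases 563 (5.65%) overlap C430014B12Rik, which lies antisense, and reads of the genes could not be told apart if strand was not used in counting. Some other members overlap antisense genes too, with the largest share in Col9a3, where 234 exonic bases (6.07%) overlap Tcfl5. Col5a1, a type V chain that starts fibril assembly, had 0.953, 0.269, 1.13 and 0.692 CPM and then 2.97, 1.71, 1.61 and 4.33 CPM (1.79 ± 0.63, q = 0.026), a call that was lost without control sample 2, without 3 d sample 4, and with the replicate number as a block.

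The other 7 members tested were not called at 3 d, and those with the highest control levels were among them. Col4a1, a chain of nearly every basement membrane and the highest collagen gene of the control monocytes at 1.52 CPM per kb, had 8.87, 9.47, 11.9 and 15.2 CPM in the controls and 6.78, 8.04, 10.6 and 10.3 CPM at 3 d (-0.35 ± 0.25, q = 0.24). Col4a2, which joins it in the helix, had 2.11, 2.42, 4.54 and 6.88 CPM in the controls and 3.86, 2.29, 4.03 and 6.82 CPM at 3 d (0.09 ± 0.45, q = 0.88). The groups overlapped for both genes. Besides these, Col1a2 and Col3a1, the members not called were Col11a2 (1.16 ± 0.47, q = 0.050), Col4a5 (2.34 ± 0.99, q = 0.056) and Col25a1 (2.03 ± 0.94, q = 0.081). The first 2 of these were called under DESeq2 and under the 3 other scalings.

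By chain class, 8 of 11 fibrillar chains were called higher in the 3 d monocytes (median log2 fold change 3.12), and 28 of 32 other chains (median 3.01). All 9 beaded filament and anchoring chains were called higher (median 3.68), as were all 9 fibril-associated chains (3.42), 5 of 6 transmembrane and multiplexin chains (2.32) and 5 of 8 basement membrane and network chains (2.52). The background of 36.8% applies to each of these counts, and classes were not tested against each other.

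The change in the 3 d monocytes was set beside the level of the genes, since genes of low level were called higher across the genome. Genes were placed in bands by their mean log2 CPM in the 14 d monocytes, which are not part of the comparison. Below -1, 80.7% of 7430 genes were called higher at 3 d (median log2 fold change 3.12), and 11 of the 12 members in this band (median 3.23). Between -1 and 1 the share was 41.4% of 4046 genes (median 0.88), against 24 of 27 members (median 3.01). Between 1 and 4 it was 10.4% of 4256 genes (median -0.18), against 1 of 4 members, Col7a1, with Col3a1, Col4a1 and Col4a2 not called. At 4 and above it was 1.51% of 6621 genes, and no member was that high. Of the 43 members tested, 13 passed the filter on low counts only through the 3 d group, so that 12 of them being called higher is no support. Among genes that passed without that group, 14.2% of 15153 were called higher, against 24 of 30 members. Between -1 and 1, where 25 of these members lay, the shares were 37.4% of 3611 genes and 22 of 25 members.

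**Figure D2:**
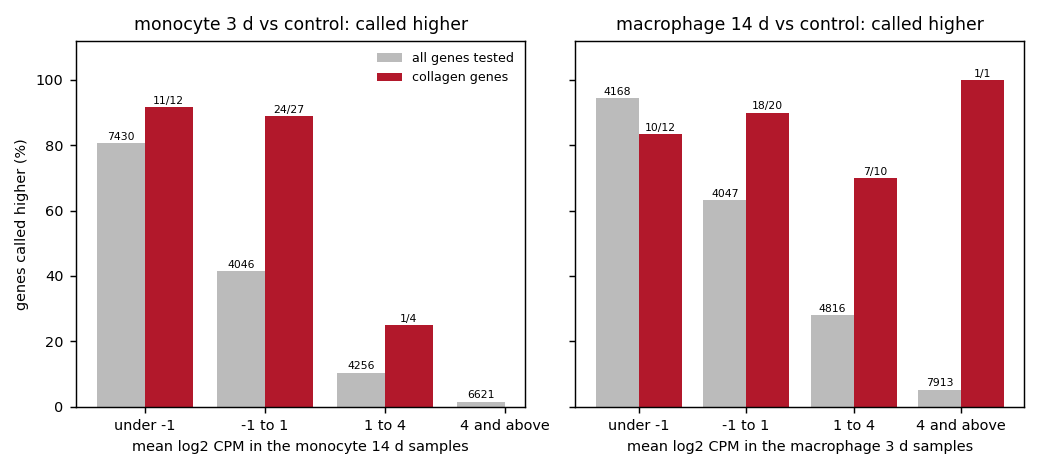
Share of genes called higher (vertical axis, percent) in bands of mean log2 CPM (horizontal axis) for monocytes at 3 d and macrophages at 14 d, for all genes tested and for collagen genes. In monocytes the share of all genes falls from 80.7% to 1.51% across the bands with 11 of 12, 24 of 27 and 1 of 4 collagen genes called, and in macrophages it falls from 94.5% to 5.19% with 10 of 12, 18 of 20, 7 of 10 and 1 of 1.

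Olfactory, vomeronasal and taste receptor genes, which serve sensory cells, gave a second measure of the low-level rise. Of 350 such genes tested in monocytes, 272 were called higher at 3 d and 0 lower, with a median log2 fold change of 3.04. How many of the 350 passed the filter on low counts only through the 3 d group was not counted, so this is a description. Per kilobase of exon, the collagen level was 4.26, 3.67, 7.15 and 26.8 times the receptor level in the 4 control samples, 4.28, 3.59, 3.34 and 4.71 times at 3 d and 3.94, 4.42, 7.21 and 35.2 times at 14 d. The ratio at 3 d lay at the low end of the other groups. In the controls the receptor level was 0.0264, 0.0330, 0.0170 and 0.00429 CPM per kb, while the summed collagen level was much the same in all 4. At 3 d, 2 members had a mean level over 10 times that of the receptor genes per kb, Col27a1 (11.7 times) and Col5a3 (10.8 times), 21 lay between 3 and 10 times and 21 below 3 times.

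**Figure D3:**
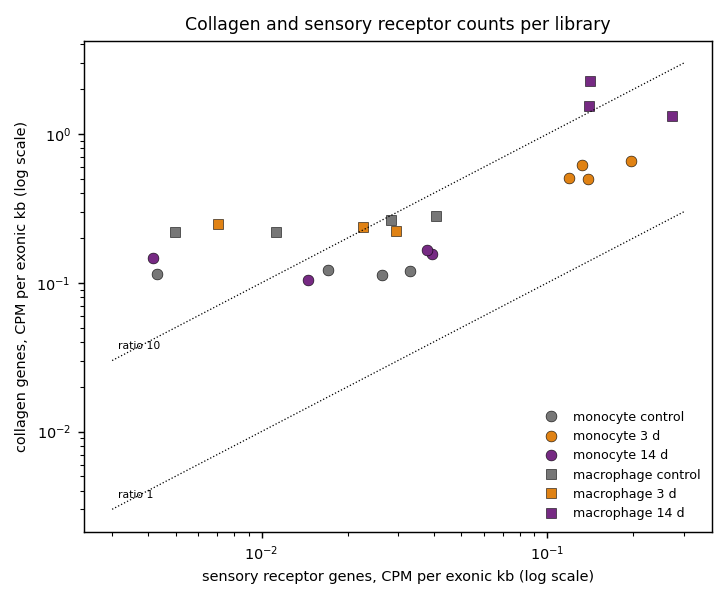
CPM per exonic kb of the collagen genes (vertical axis, log scale) against that of sensory receptor genes (horizontal axis, log scale) in each of the 22 samples, with dotted lines at ratios of 1 and 10. The 4 monocyte samples at 3 d lie at ratios of 3.34 to 4.71, and the 3 macrophage samples at 14 d at ratios of 4.85 to 16.2. The receptor level rests on 1457 genes in monocytes and 742 in macrophages.

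At 14 d the monocytes were near the controls again. Of the 43 members, 2 were called higher and 0 lower against control, beside 3.22% and 5.34% of all genes, with a median log2 fold change of 0.54 (all genes 0.09). Col7a1, the chain of anchoring fibrils, had 1.12, 0.807, 0.241 and 0.651 CPM in the controls, 9.34, 6.42, 9.51 and 11.1 CPM at 3 d (3.68 ± 0.41, q = 0.00014) and 2.60, 3.85, 2.18 and 3.75 CPM at 14 d (2.13 ± 0.39, q = 0.0028). Col6a3 had 0.497, 0.377, 0.482 and 0.122 CPM in the controls, 4.71, 5.97, 6.504 and 7.25 CPM at 3 d and 1.67, 2.56, 0.958 and 1.01 CPM at 14 d (2.05 ± 0.45, q = 0.0096). For both genes all 4 samples at 14 d lay between the controls and the 3 d samples.

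Against 3 d, 31 members were called lower at 14 d and 0 higher, beside 34.5% and 12% of all genes, with a median of -2.40 (all genes -0.26). This comparison shares its 3 d samples with that of 3 d and control. The largest falls were those of Col5a3, with 1.16, 0.394, 0.639 and 0.202 CPM at 14 d (-4.16 ± 0.58, q = 0.00059), Col9a2, with 0.0464, 0.148, 0.266 and 0 CPM (-4.01 ± 0.87, q = 0.0033), and Col2a1, with 0.510, 0.0986, 0.213 and 0 CPM (-3.78 ± 0.93, q = 0.0059). All 3 were below their 3 d samples and overlapped the controls. Fibrillar chains were called lower in 7 of 11 and other chains in 24 of 32. Col1a1 had 0.464, 0.937, 0.266 and 2.18 CPM at 14 d (-2.36 ± 0.54, q = 0.0042), and Col3a1 had 1.02, 3.16, 1.01 and 7.30 CPM, which overlapped both other groups. Sample 4 was the highest of the 14 d samples for Col1a1, Col1a2, Col3a1, Col4a1, Col4a2, Col6a1, Col6a2 and Col9a3, and fibrillar chains made up 20.3, 25.0, 22.1 and 37.1% of the collagen CPM in the 4 samples.

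Fibroblast markers were measured beside the collagen genes. In monocytes the summed level of 18 fibroblast and smooth muscle markers was 87.8 to 163 CPM in the controls, 139 to 186 CPM at 3 d and 144 to 214 CPM at 14 d. Most of it was Pi16, at means of 110.1, 106 and 138 CPM. Of 15 markers tested, 7 were called higher and 1 lower at 3 d, beside 36.8% and 14.4% of all genes. Myh11, a smooth muscle myosin, rose from 0.563 to 7.74 CPM (3.77, q = 0.00014) and Pdgfra, a receptor of fibroblasts, from 0.213 to 2.67 CPM (3.64, q = 0.0012). Dcn, an abundant fibroblast transcript, and Acta2, a smooth muscle actin, were not called (-0.48, q = 0.44, and 0.50, q = 0.12). No marker was at 0 in every library. How many of the markers passed the filter on low counts only through the 3 d group was not counted, so their calls are descriptions. Other measures also moved at 3 d. The summed level of 8 lymphocyte markers was 186 to 746 CPM in the controls and 21.5 to 132 CPM at 3 d. Of these, 7 of 8 were called lower, beside 14.4% of all genes. Of 10 alveolar macrophage markers 0 were called higher and 5 lower, and of 6 Ly6Chi monocyte markers 0 were called higher and 2 lower. The number of genes with a count went from 24775 to 30865 in the controls to 40119 to 41134 at 3 d. At 14 d, when the collagen genes were near the controls, the lymphocyte markers were at 16.4 to 34.1 CPM and 24829 to 32492 genes had a count. In bulk samples fewer cells of a type and less RNA per cell cannot be told apart, and the part of these measures in the collagen counts was not tested.

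In macrophages none of the 43 members tested was called at 3 d, 0 higher and 0 lower, beside 1.05% and 0.224% of all 20944 genes, with a median log2 fold change of -0.02. In edgeR 5 of the 43 had an unadjusted p-value under 0.05, as had 14.1% of all genes, and DESeq2 called 0. The summed collagen level was 92.0, 97.1, 76.9 and 76.6 CPM in the controls and 82.0, 77.9 and 86.1 CPM at 3 d. Col3a1 had 16.0, 12.9, 8.98 and 11.4 CPM in the controls and 14.0, 11.4 and 29.9 CPM at 3 d (0.57 ± 0.41, q = 0.58). Sample 3 was the high one, and fibrillar chains made up 40.1, 35.2 and 57.0% of the collagen CPM in the 3 samples. Without sample 2 at 3 d, 1 member was called, Col15a1, which was lower.

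At 14 d nearly all collagen genes of the macrophages were higher than in the controls. Of the 43 members tested, 36 were called higher and 2 lower (median log2 fold change 3.06), beside 39.4% and 22.9% of all genes (median 0.18). Against 3 d, 38 were called higher and 1 lower (median 3.05), beside 36.3% and 20% of all genes (median 0.16). The rises against control ran from 2.07 for Col4a4 to 4.33 for Col16a1. Of the 36 members called higher, 17 passed the filter only through the 14 d group, so that their calls are no support. The summed collagen level was 534, 460.1 and 791 CPM in the 3 samples, all above every control and 3 d sample. Col10a1, a chain of growing cartilage, was not tested, with 1, 5 and 9 counts at 14 d.

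In the 14 d macrophages Col3a1 had the highest level of all members. Col3a1 had 167, 102 and 277 CPM at 14 d (log2 fold change against control 3.88 ± 0.41, q = 3.6e-05). Col1a1 had 0.959, 0.912, 1.57 and 1.86 CPM in the controls, 1.58, 1.16 and 0.209 CPM at 3 d and 16.3, 23.9 and 32.0 CPM at 14 d (4.16 ± 0.39, q = 1.4e-06). Col1a2 had 1.99, 1.597, 1.44 and 1.06 CPM in the controls, 1.65, 1.47 and 0.626 CPM at 3 d and 11.96, 11.2 and 11.3 CPM at 14 d (2.91 ± 0.33, q = 4.9e-06). In these genes the 14 d samples were above all controls and 3 d samples. Col5a1 had 5.89, 3.27, 3.80 and 2.72 CPM in the controls, 3.87, 2.87 and 6.99 CPM at 3 d and 54.7, 34.8 and 91.0 CPM at 14 d (3.93 ± 0.37, q = 5.0e-06), likewise without overlap. Per kilobase at 14 d, Col3a1 stood at 18.6, Col5a1 at 7.09, Col6a1 at 6.00, Col4a5 at 5.32, Col5a2 at 4.64, Col1a1 at 3.67 and Col1a2 at 0.925 CPM per kb.

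The 3 largest rises against control were those of Col16a1, Col4a5 and Col1a1. Col16a1, a fibril-associated chain, had 0.342, 0.836, 0.459 and 0.332 CPM in the controls, 1.36, 0.621 and 1.04 CPM at 3 d and 10.1, 6.55 and 13.4 CPM at 14 d (4.33 ± 0.42, q = 1.8e-06). Col4a5, a type IV chain of specialised basement membranes, had 2.81, 1.98, 1.51 and 1.33 CPM in the controls, 2.65, 2.25 and 2.40 CPM at 3 d and 30.2, 21.0 and 56.0 CPM at 14 d (4.22 ± 0.33, q = 4.3e-07). Both were apart from the other groups at 14 d. Col6a1 had 2.74, 1.75, 1.84 and 1.195 CPM in the controls, 2.36, 1.24 and 2.82 CPM at 3 d and 23.8, 17.5 and 37.5 CPM at 14 d (3.79 ± 0.34, q = 9.3e-07). Against 3 d the largest rises were those of Col1a1 (4.53 ± 0.46, q = 1.4e-05), Col9a1, another chain of collagen IX, with 3, 3 and 0 counts at 3 d and 17, 38 and 20 at 14 d (4.38 ± 0.87, q = 0.00079), and Col24a1, a fibrillar chain of developing bone, with 4, 4 and 0 counts and then 25, 61 and 12 (4.32 ± 0.81, q = 0.00054). Col9a1 and Col24a1 passed the filter only through the 14 d group, and their changes are descriptions.

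Members of lower level rose as well. Col27a1 had 1.16, 1.597, 0.459 and 0.863 CPM in the controls and 4.47, 6.18 and 6.76 CPM at 14 d (2.50 ± 0.40, q = 9.8e-05). Col5a3 had 0.479, 0.760, 0.328 and 0.465 CPM in the controls and 4.75, 3.40 and 1.69 CPM at 14 d (2.68 ± 0.58, q = 0.00091). These were the top members of the 3 d monocytes and stood in the macrophages at 0.445 and 0.482 CPM per kb. Col8a1 had 0.205, 0.760, 0.197 and 0.199 CPM in the controls and 3.46, 3.15 and 2.03 CPM at 14 d (3.07 ± 0.58, q = 0.00035). Col4a3 had 0.411, 1.597, 0.131 and 0.199 CPM in the controls and 3.89, 4.91 and 5.07 CPM at 14 d (3.00 ± 0.66, q = 0.0010). Col2a1 had 3, 5, 1 and 2 counts in the controls and 10, 6 and 15 at 14 d (2.95 ± 0.93, q = 0.010), a call that was lost without sample 3 at 14 d. Of the genes of largest change in monocytes, Col9a2 had 10, 10, 2 and 2 counts in the controls and 24, 39 and 14 at 14 d (3.07 ± 0.73, q = 0.0017), Col26a1 4, 7, 0 and 3 and then 29, 24 and 13 (3.62 ± 0.74, q = 0.00058), and Col6a3 20, 29, 13 and 10 and then 77, 50 and 44 (2.7 ± 0.42, q = 7.3e-05). In all of these genes the 14 d samples lay above the controls, but apart from Col27a1 and Col6a3 they passed the filter only through the 14 d group.

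Col15a1 and Col11a2 went the other way. Col15a1, a chain at the outer face of basement membranes, was the highest collagen gene of the control macrophages at 3.28 CPM per kb. It had 17.0, 18.9, 24.4 and 22.8 CPM in the controls, 10.4, 20.1 and 10.3 CPM at 3 d and 8.50, 10.1 and 5.58 CPM at 14 d (-1.36 ± 0.27, q = 0.00052). Col11a2, a minor fibrillar chain of cartilage, had 6.57, 10.5, 7.80 and 7.83 CPM in the controls, 5.80, 3.80 and 2.82 CPM at 3 d and 2.88, 5.54 and 2.71 CPM at 14 d (-1.12 ± 0.33, q = 0.0075). The 14 d samples lay below all 4 controls for both genes, and those of Col11a2 overlapped the 3 d samples. The fall of Col11a2 was not called under library size scaling, upper quartile scaling or TMM factors from high-level genes, nor where only genes above a mean log2 CPM of 1 were kept. Those scalings move the median change of all genes from 0.18 to 0.61, 0.53 and 0.73. The call of Col15a1 against 3 d (-0.75 ± 0.29, q = 0.033) was lost in 8 alternative fits, among them those without sample 2 at 3 d or sample 3 at 14 d. Of the members tested, Col4a6, Col6a6, Col9a3, Col14a1 and Col20a1 were not called at 14 d against control.

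**Figure D4:**
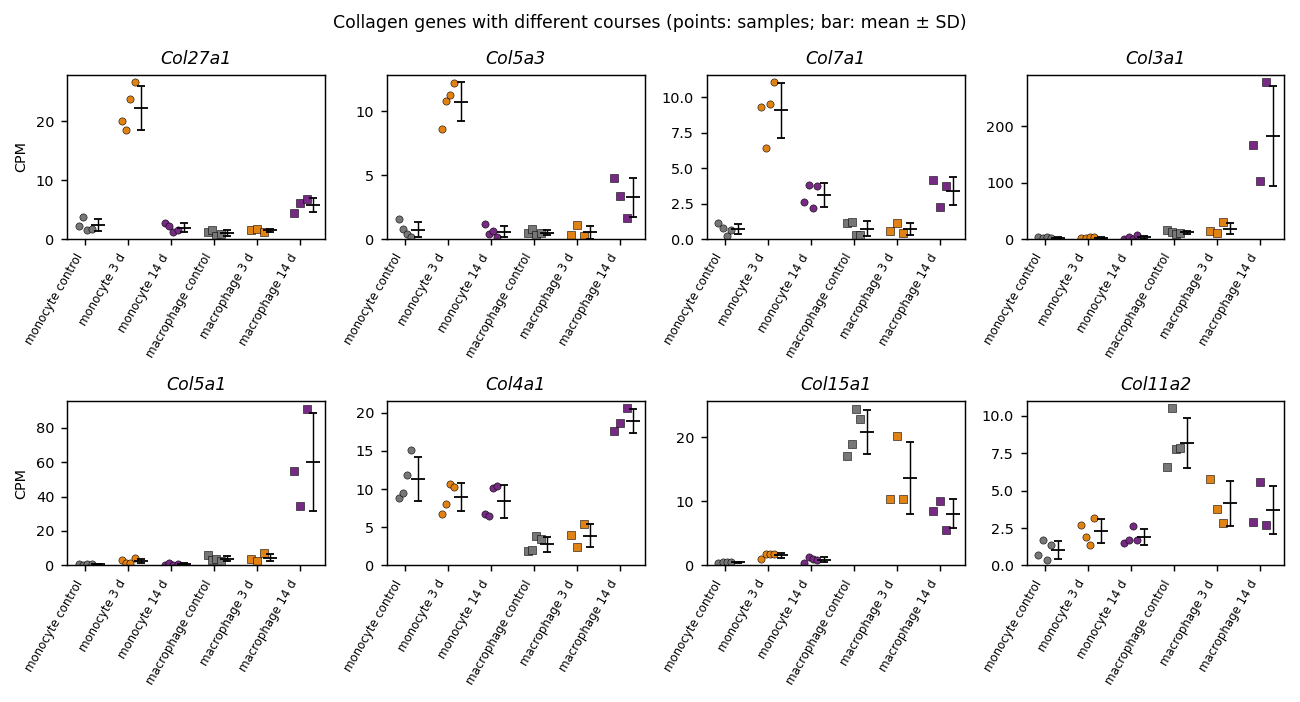
CPM of 8 collagen genes (vertical axes) in the 6 groups (horizontal axes), with each sample as a point and the mean ± SD. Col27a1, Col5a3 and Col7a1 are highest in the monocytes at 3 d, Col3a1, Col5a1 and Col4a1 in the macrophages at 14 d, and Col15a1 and Col11a2 in the control macrophages.

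By class, 10 of 11 fibrillar chains were called higher and 1 lower in the 14 d macrophages (median 3.06), and 26 of 32 other chains were called higher and 1 lower (median 3.03). The counts called higher were 7 of 8 for basement membrane and network chains, 8 of 9 for beaded filament and anchoring chains, 6 of 9 for fibril-associated chains and 5 of 6 for transmembrane and multiplexin chains. Fibrillar chains made up 34.6 to 40.9% of the collagen CPM in the control macrophages and 59.2, 49.3 and 62.5% at 14 d, so that the groups were apart. In monocytes that share was 19.3 to 29.7% in the controls and 28.9 to 32.2% at 3 d, where the groups overlapped. The shares were not tested.

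The same bands by level were drawn in macrophages, by the mean log2 CPM at 3 d. Below -1, 94.5% of 4168 genes were called higher at 14 d (median log2 fold change 3.50), and 10 of 12 members (median 3.19). Between -1 and 1 the share was 63.3% of 4047 genes (median 2.00), against 18 of 20 members (median 2.84). Between 1 and 4 it was 28% of 4816 genes (median -0.04), against 7 of 10 members (median 3.25), and at 4 and above it was 5.19% of 7913 genes, with the lone member Col3a1 called higher. Of the 43 members, 19 passed the filter only through the 14 d group, among them 10 of the 12 below -1 and 9 of the 20 between -1 and 1, and these counts are therefore no support. Among genes that passed without that group, 19.9% of 15310 were called higher, against 19 of 24 members. Between -1 and 1 the shares among these were 50.6% of 2528 genes and 10 of 11 members, and the bands above were nearly as given. Of 168 sensory receptor genes tested, 167 were called higher at 14 d (median 3.46). How many of them passed the filter only through the 14 d group was not counted, so this is a description. Of 1457 annotated receptor genes, 742 were listed for macrophages and all 1457 for monocytes, so receptor levels of the cell types rest on unlike sets.

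Within the 14 d macrophages, members of high and low level did not have the same sample on top. A set of 9 members had a mean over 10 times the receptor level per kb, Col3a1 at 101 times, Col5a1 at 38.4, Col6a1 at 32.5, Col4a5 at 28.9, Col5a2 at 25.2, Col1a1 at 19.9, Col4a1 at 13.8, Col4a2 at 13.4 and Col12a1 at 11.6 times. All 9 were highest in sample 3, with sums of 396, 286 and 641 CPM in samples 1 to 3. The other 35 members summed to 138, 174 and 150 CPM, and 20 of them were highest in sample 2. The receptor genes summed to 504, 986 and 509 CPM, also highest in sample 2. The ratio of collagen to receptor level per kb was 10.99, 4.85 and 16.2, against 9.30, 6.86, 44.4 and 19.6 in the controls. The sets were formed on these samples, and the order is a description.

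Fibroblast markers were also higher in the 14 d macrophages. The summed level of the 18 markers was 205, 198 and 225 CPM at 14 d. It was 51.9 to 56.0 CPM at 3 d and 30.1 to 52.5 CPM in the controls. Of 16 tested, 14 were called higher at 14 d and 0 lower, beside 39.4% and 22.9% of all genes. The proteoglycan gene Cspg4 made up most of the sum, at a mean of 119.6 CPM from 20.3 CPM in the controls (2.56, q = 4.2e-05). Pi16 rose to 23.3 CPM (4.51, q = 2.8e-07), and Lum, a proteoglycan of collagen fibrils, to 5.77 CPM (3.76, q = 1.1e-05). Dcn was 1.94 CPM in the controls and 4.99 CPM at 14 d (1.35, q = 0.027). None of the 18 was at 0 in every library, and their part in the collagen counts was not tested. How many of the markers passed the filter only through the 14 d group was not counted, so their calls are descriptions. Of 10 alveolar macrophage markers 0 were called higher and 7 lower, and of 6 Ly6Chi monocyte markers 3 were called higher and 0 lower. The part of these changes in the collagen counts was not tested either. Markers of other cells moved too, with 7 of 10 endothelial markers called higher and 2 lower, and 4 of 5 neutrophil markers higher and 1 lower. Of 10 alveolar epithelial markers 4 were higher and 4 lower, and of 7 lymphocyte markers 1 was higher and 0 lower. The rises in these lists of epithelial and lymphocyte markers were near or below the share of all genes. The number of genes with a count was 27699 to 30627 at 14 d and 21951 to 27616 in the controls.

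The changes in the 3 d monocytes and in the 14 d macrophages were then set side by side. Of the 42 members tested in both cell types, 29 were called higher in both, beside 20.7% of the 17443 genes tested in both. Of these, Col2a1, Col8a1, Col9a1, Col9a2, Col13a1, Col17a1, Col24a1 and Col28a1 passed the filter in both cell types only through the group compared with control. So did Col6a4 in monocytes, and Col4a3, Col5a3, Col6a5, Col11a1, Col19a1, Col23a1 and Col26a1 in macrophages. Their calls are no support, and the count is a description. Called higher in monocytes and not in macrophages were Col4a6, Col6a6, Col9a3, Col14a1, Col15a1 and Col20a1, and also Col10a1, which was tested in monocytes alone. Called higher in macrophages and not in monocytes were Col1a2, Col3a1, Col4a1, Col4a2, Col4a5 and Col25a1, and also Col8a2, which was tested in macrophages alone. Across the 42 genes the changes had a Pearson r of 0.23 and a Spearman rho of 0.15, a description only, as the genes of a cell type share libraries and depth.

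**Figure D5:**
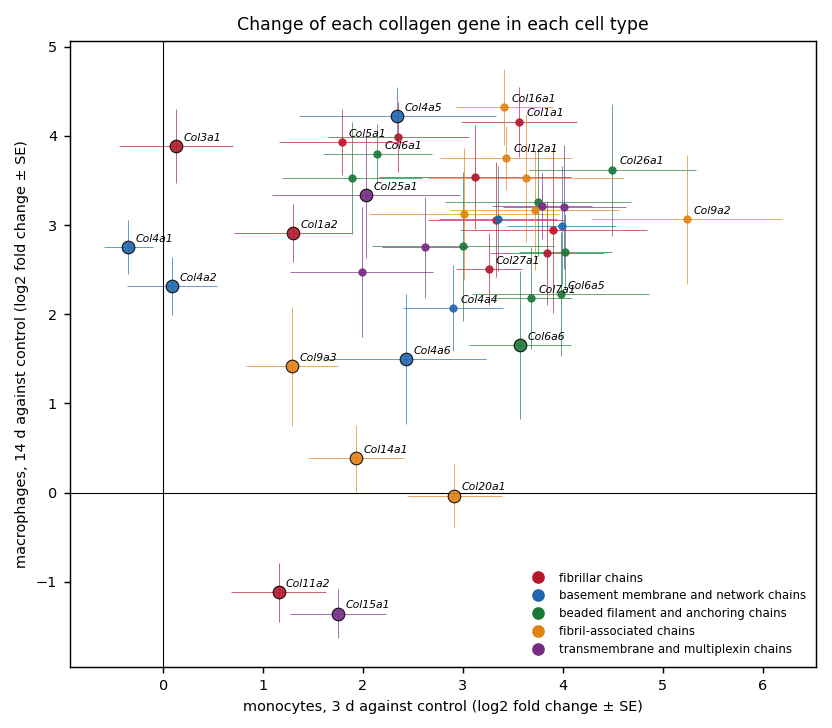
Log2 fold change ± SE of each of the 42 collagen genes tested in both cell types, in monocytes at 3 d (horizontal axis) and macrophages at 14 d (vertical axis), coloured by chain class, with larger outlined points for genes whose call differed. Col3a1, Col4a1 and Col4a2 lie near 0 on the horizontal axis with rises in macrophages, Col11a2 and Col15a1 lie below 0 on the vertical axis, and most genes lie high on both.

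The paired type IV genes were compared next. Col4a1 and Col4a2, whose starts lie closest, were both not called in the 3 d monocytes and both rose in the 14 d macrophages. There Col4a1 went from 1.85, 2.05, 3.80 and 3.45 CPM in the controls to 17.6, 18.7 and 20.6 CPM (2.75 ± 0.30, q = 4.4e-06). Col4a2 went from 2.40, 2.81, 5.57 and 2.32 CPM to 15.3, 16.3 and 17.6 CPM (2.31 ± 0.33, q = 3.3e-05). Col4a3 and Col4a4 were both called higher in monocytes at 3 d (3.99 and 2.90) and in macrophages at 14 d (3.00 and 2.07). Col4a5 and Col4a6 did not share their call. In macrophages Col4a5 rose by 4.22 and Col4a6 had 8, 14, 4 and 2 counts in the controls and 2, 19 and 9 at 14 d (1.49 ± 0.73, q = 0.079). In monocytes Col4a6 was called higher at 3 d (2.43 ± 0.80, q = 0.019), and Col4a5, with 14, 2, 25 and 0 counts in the controls and 51, 41, 56 and 40 at 3 d, was not. The difference within a pair was not tested.

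Whether the cell types differed in their change was tested as an interaction over all 22 samples, on 26692 genes. For the change from control to 3 d, 28 of 44 members were lower in macrophages than in monocytes and 0 higher, beside 15.2% and 3.51% of all genes. For the change to 14 d, 17 were higher in macrophages and 2 lower, beside 16.9% and 19.9%. In the separate fits only 30 of 43 members passed the filter in monocytes without the 3 d group. In macrophages 24 of 43 passed without the 14 d group. How many passed the filter of the interaction only through these groups was not counted, so the counts of members are descriptions. Col1a1 differed by -4.14 ± 0.78 at 3 d (q = 0.0016) and by 2.61 ± 0.75 at 14 d (q = 0.0088). Col3a1 differed by 0.29 ± 0.77 at 3 d (q = 0.83) and by 3.32 ± 0.76 at 14 d (q = 0.0028). Thus Col3a1 differed between the cell types at 14 d, and Col1a1 at both times in opposite directions. Col4a1 differed by 2.84 ± 0.42 at 14 d (q = 2.1e-05), and Col4a5 by 5.33 ± 1.09 (q = 0.00084). For Col6a3 and Col7a1, called higher at 14 d in both cell types, the difference was 0.32 ± 0.66 (q = 0.72) and -0.27 ± 0.68 (q = 0.78). The 2 members lower in macrophages at 14 d were Col11a2 (-2.35 ± 0.60, q = 0.0043) and Col15a1 (-2.65 ± 0.50, q = 0.00029). Without macrophage sample 3 at 3 d, 17 members rather than 28 were lower at 3 d.

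Genes whose products act on collagen were taken from lists by role. How many of them passed the filter on low counts only through the group compared with control was not counted. The counts and changes given for these lists are therefore descriptions. Beside their counts stand the shares of all genes given above, 36.8% higher and 14.4% lower in the 3 d monocytes and 39.4% higher and 22.9% lower in the 14 d macrophages, and the lists were not tested against them. Of 18 genes that modify and fold procollagen, 10 were called higher and 4 lower in the 14 d macrophages. Serpinh1, the collagen chaperone, rose from a mean of 12.5 to 206 CPM (4.05, q = 2.9e-05) and Fkbp10, a prolyl isomerase, from 1.40 to 16.7 CPM (3.56, q = 9.5e-06). Of the more abundant genes, Colgalt1, a collagen galactosyltransferase, fell (-1.30, q = 9.6e-06) and P4hb, a subunit of prolyl hydroxylase, did not pass the fold threshold (-0.47, q = 0.026). In the 3 d monocytes 3 were called higher, among them P4ha3 (4.14, q = 0.0017) and P3h2 (3.12, q = 0.0048), and 3 lower, among them Plod3, a lysyl hydroxylase (-0.80, q = 0.0024). Serpinh1 had means of 1.63 CPM in the control monocytes and 2.68 CPM at 3 d (0.71, q = 0.20) and was not called.

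Of 16 genes for processing and cross-linking outside the cell, 14 were tested in macrophages, 12 called higher and 1 lower at 14 d. Loxl1, a lysyl oxidase, rose from 3.50 to 55.6 CPM (3.99, q = 1.0e-05) and Sparc, a collagen-binding matrix protein, from 10.6 to 161 CPM (3.92, q = 3.7e-07). In monocytes 8 of 13 tested were called higher and 1 lower at 3 d. Bmp1, a procollagen protease, rose from 0.804 to 10.5 CPM (3.72, q = 0.00015) and Adamts3, another, from 0.247 to 2.53 CPM (3.37, q = 0.0016). Sparc was not called there (-0.71, q = 0.086).

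Collagen receptors and uptake genes went both ways. In the 14 d macrophages 7 of 12 tested were called higher and 4 lower. Cd44, a hyaluronan receptor that also binds collagen (-1.39, q = 1.3e-05), and Mrc1, the mannose receptor (-1.63, q = 3.6e-06), fell, while Mrc2, the collagen uptake receptor of mesenchymal cells, rose from 0.227 to 5.57 CPM (4.57, q = 8.6e-06) and Ddr1 from 1.25 to 18.7 CPM (3.89, q = 1.3e-06). In the 3 d monocytes 5 of 13 were called higher and 4 lower, a share of rises near that of all genes. Mrc2 rose from 0.272 to 4.87 CPM (4.14, q = 0.00063) and Itga11, part of a collagen integrin, from 0.378 to 3.57 CPM (3.20, q = 0.0012), while Cd44 (-0.78, q = 0.0057) and Itgb1 (-1.22, q = 0.011) fell.

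Collagen-cleaving proteases were counted at both times in monocytes. Of 9 genes, 1 was called higher and 2 lower at 3 d, and 4 higher and 0 lower at 14 d, when 3.22% and 5.34% of all genes were. Against 3 d, 6 of the 9 were called higher at 14 d and 0 lower, beside 12% and 34.5% of all genes. Mmp14, a membrane collagenase, had means of 3.12 CPM in the controls and 109.7 CPM at 14 d (5.14, q = 0.0023). Mmp13, a secreted collagenase, rose from 0.382 CPM to 7.61 CPM at 3 d (4.34, q = 0.0060) and 10.5 CPM at 14 d (4.81, q = 0.016). In the 14 d macrophages 5 of 9 were called higher and 2 lower. Mmp9, a gelatinase, rose from 1.01 to 74.9 CPM (6.18, q = 0.00015), the cathepsin gene Ctss fell (-0.71, q = 0.00058), and Ctsb was not called (-0.12, q = 0.51).

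Genes for proteins with a collagen-like stretch outside the family were also counted. In monocytes 7 of 19 tested were called higher and 2 lower at 3 d, and 3 higher and 2 lower at 14 d. The counts at 3 d are near the shares of all genes. At 3 d Colq, which anchors acetylcholinesterase (4.02, q = 0.0015), and Gldn (3.75, q = 0.0079) rose from means of 0.172 and 0.182 CPM. Whether genes of this list passed the filter only through the group compared with control was not counted, so their calls are descriptions. At 14 d the complement genes C1qa (4.64, q = 0.0014) and C1qc (4.23, q = 0.0015) rose to 189.9 and 237 CPM. In the 14 d macrophages 13 of 19 were called higher and 2 lower, with C1qc from 0.677 to 83.7 CPM (6.91, q = 2.8e-07) and C1qb from 1.44 to 165 CPM (6.81, q = 4.9e-05). Marco, a scavenger receptor of alveolar macrophages, was not called (-0.53, q = 0.098).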

How the data were processed

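RNA was sequenced from sorted Ly6Chi monocytes and alveolar macrophages. Poly(A) RNA was made into NEBNext Ultra libraries and read paired-end on a HiSeq. Raw counts of reads for each gene were deposited by the authors, 1 table per cell type, who per the submitters' processing notes used STAR (2.7.2c and 2.7.3a), featureCounts 1.6.3 and DESeq2 (1.26.0 and 1.28.1) with GRCm38. Strand use in counting is not given in the sources used here. Every deposited column was matched to a labelled sample, with 0 columns left unused.

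Gene names and exon lengths came from GENCODE (99.67% and 99.76% of IDs matched). Each cell type was fitted by edgeR 4.0.16 on R 4.3.3 (filterByExpr, TMM factors, robust quasi-likelihood test), p-values adjusted by Benjamini-Hochberg across the genes tested, and a fold threshold of 1.5. The interaction was fitted over all 22 samples. Reported CPM were computed from the counts with TMM library sizes. The floor of 3 counts lay at 0.121 to 0.507 CPM in the libraries and covers counting error only. Scripts were tested on simulated data.

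The members and lists were chosen with earlier results of these data known. Named members are the 3 highest per kb in each cell type, the 3 largest called changes without overlap of groups per direction and comparison, Col1a1, Col1a2, Col3a1, and 4 chains that the study names (Col6a1, Col8a1, Col4a3, Col2a1). From each other list these are the 2 most abundant genes and the 2 largest called changes. Genes outside this rule were named after their values were seen. Alternatives were DESeq2 1.42.0, 3 other scalings, other filters, other sample sets and a replicate block.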

Additional observations from a re-analysis of the deposited data

Results flagged for a closer look

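Of 92 groups of 4 samples examined for the members given by sample, 4 held a sample whose gap to the nearest other, over the range of the group, passed Dixon's critical value, and chance gives about 1 in 20. Col15a1 was 0.9344 CPM in monocyte sample 1 at 3 d, against 1.774 to 1.841 CPM in the others. Col24a1 was 0.7884 CPM in monocyte sample 1 at 14 d, against 0.1972 to 0.2419 CPM. Col1a2 was 0.1614 CPM in control monocyte sample 2, against 0.9945 to 1.166 CPM. Col8a1 was 0.7603 CPM in control macrophage sample 2, against 0.1966 to 0.2054 CPM.

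The change against control differed between the cell types in 27 of 42 interaction tests on 21 of these members (edgeR, adjusted over all genes), 15 at 3 d and 12 at 14 d. Of all genes, 15.2% were lower in macrophages and 3.51% higher at 3 d, and 19.9% lower and 16.9% higher at 14 d. These members were named in part for large called changes in the same samples, so the count is a description. In both cell types Col8a1, Col9a1, Col9a2 and Col24a1 passed the filter of the separate fit only through the group in which they were high. So did Col4a5 in monocytes, and Col4a3, Col5a3 and Col26a1 in macrophages. At 3 d all 15 were lower in macrophages than in monocytes on the log2 scale. The fibrillar chains among them were Col1a1 (-4.137), Col5a3 (-3.928), Col11a2 (-2.304), Col24a1 (-4.778) and Col27a1 (-2.844). The others were Col4a3 (-3.913), Col6a1 (-2.126), Col6a3 (-4.549), Col7a1 (-3.865), Col8a1 (-2.914), Col9a1 (-4.661), Col9a2 (-5.022), Col15a1 (-2.543), Col16a1 (-2.538) and Col26a1 (-5.238). At 14 d 10 of the 12 were higher in macrophages. These were Col1a1 (2.61), Col3a1 (3.321), Col4a1 (2.841), Col4a5 (5.33), Col5a1 (3.737), Col5a3 (2.658), Col6a1 (2.628), Col8a1 (2.252), Col16a1 (3.552) and Col27a1 (2.414). Col11a2 (-2.345) and Col15a1 (-2.648) were lower. Some of these calls ended when 1 sample was left out. At 14 d that of Col8a1 was lost in 9 of 20 alternative fits and that of Col5a3 in 1 (without control monocyte sample 1). At 3 d that of Col6a1 was lost in 7 of 21, Col9a1 in 4 of 20, Col8a1 in 3, Col16a1 in 2 and Col11a2 in 1, each of them also without macrophage sample 3 at 3 d. The 2 cell types were deposited as separate tables, and all changes of a cell type share its controls.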

How the results depend on the processing

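Restricting the fit to genes with a mean log2 CPM above 1 left fewer members to test and lowered the counts called. In monocytes 3 of 6 were called at 3 d, 1 at 14 d and 3 for 14 d against 3 d, and in macrophages 14 of 17 were called at 14 d and 14 against 3 d. The interaction then called 7 members of 12 at 3 d and 11 at 14 d. The shares of all genes called in these restricted fits are not given here, so the counts are a description. In the main fits, the bands of 1 to 4 and of 4 and above held 10.4% and 1.51% of genes called higher in the 3 d monocytes. In the 14 d macrophages they held 28% and 5.19%. Leaving out each replicate in turn gave 32 to 37 members in monocytes at 3 d (42.3% to 52.5% of all genes called in either direction), 2 to 3 at 14 d (4.59% to 7.58%) and 28 to 34 for 14 d against 3 d (37.1% to 49.5%). In macrophages it gave 0 to 1 at 3 d (0.311% to 5.77%), 36 to 40 at 14 d (60% to 62.6%) and 34 to 38 for 14 d against 3 d (51.7% to 55.5%). In the interaction it gave 17 to 28 at 3 d (7.87% to 20.1%, 17 without macrophage sample 3 at 3 d) and 16 to 22 at 14 d (29.7% to 40%). Bands drawn by the control group held 84.6% of genes called higher in the lowest band in monocytes and 96.9% in macrophages. Replicate numbers were not taken as pairs, as no comparison had every same-numbered correlation above 0.1. Between the control and 14 d monocytes, however, these were 0.089 to 0.521 (mean 0.280), against a mean of -0.093 for other numbers. With the replicate number as a block 37 members were called in monocytes at 3 d and 38 in macrophages at 14 d. In monocytes at 14 d against control, 1 to 2 were called across 9 alternatives, the block among them. The shares of all genes called with the block and in these alternatives are not given here, so the counts are a description. Of 100 calls on members given by sample, 87 held under every alternative tried and 13 were lost under at least 1, and 14 of 68 results without a call gained one. No called result reversed. Counts of a few reads per library limit the precision of the low members.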
